A study of Homo sapiens with 9 samples.

Results

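The non-collagen extracellular matrix genes form a set of 36 that was chosen by name. It holds laminins, nidogens, basement membrane proteoglycans, fibronectin, thrombospondins, fibulins, fibrillins, lysyl oxidases, matricellular proteins and interstitial proteoglycans. A member was taken as the transcript cluster that the platform annotation pairs with its symbol, and 32 of the 36 had such a cluster among 17687 genes in all. LAMA3, LAMA5, LAMB3 and LOXL2 were not analysed here. The cells were HepG2, an established human liver cancer line that secretes many hepatocyte proteins. They were left untreated, given recombinant SPARC at 200 ng/ml, or given it at 800 ng/ml, and RNA was taken after 24 h. There were 3 arrays for each condition and 9 altogether. The extraction protocol mentions only the higher dose, whereas the sample titles give the lower one too. Whether replicates were grown separately is not stated, so p-values reflect the variation among these arrays, which could be technical.

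SPARC is itself a matricellular protein, one that binds collagens and tunes how cells hold on to their matrix. Basement membranes are built from laminin trimers of an alpha, a beta and a gamma chain, which nidogens and perlecan connect to the collagen IV network. Fibronectin forms fibrils that integrins bind, whereas fibrillins and fibulins build microfibrils and elastic fibres that lysyl oxidases crosslink. Small leucine-rich proteoglycans such as decorin coat collagen fibrils and are made mainly by fibroblasts and stellate cells in liver. The comparisons ask whether exogenous SPARC shifts the transcripts of this matrix in hepatocyte-like tumour cells.

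No member changed past the test at either dose. At 200 ng/ml against untreated cells 0 of 32 members passed (limma, adjusted p under 0.05 over all genes; smallest adjusted p among members 0.966), where 0% of all genes passed. At 800 ng/ml against untreated cells, and between the doses, again 0 of 32 passed and 0% of all genes did (smallest adjusted p among members 0.659 and 0.999). At an unadjusted p under 0.05 the members numbered 0, 1 and 0 in the 3 comparisons, against 1.78%, 4.17% and 2.41% of all genes. With array weights estimated per array, 2, 1 and 0 members passed (6.25%, 3.125% and 0% of them), where 11.1%, 4.14% and 0.0339% of all genes did. The 1 member at an unadjusted p under 0.05 was FBN2, the microfibril protein fibrillin-2, at 800 ng/ml. The median log2 difference of the 32 members was 0.0078 at 200 ng/ml, 0.0010 at 800 ng/ml and 0.016 between the doses, beside 0.027, 0.044 and 0.013 over all genes. In each comparison 16 members were higher and 16 lower, where 54.1%, 54.6% and 52.3% of all genes were higher.

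The intervals of the fit bound how large an undetected change could be. With all 9 arrays the 95% interval lay inside a 2-fold change either way for 27 of 32 members at 200 ng/ml, for 25 at 800 ng/ml and for 27 between the doses. The same held for 83.3%, 72.8% and 86.2% of all genes. A change of 1.5-fold was outside the interval for only 9, 7 and 11 members, so shifts of that size were mostly not resolvable. LAMB1, NID1, LAMA4, THBS3, FBLN5, EFEMP1 and FBN2 had intervals reaching past 2-fold in at least 1 comparison.

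Untreated replicate 2 differed from its fellow arrays, and it touches every comparison with untreated cells. Its correlation with the other arrays across transcript clusters was 0.891 to 0.920, whereas those 8 arrays correlated at 0.979 to 0.991 among themselves. Of the 15 members whose signal lay above that of the median gene, 13 were lower in this array than in the mean of untreated replicates 1 and 3, with a median deviation of −0.65. Of the 17 members below the median gene, 15 were higher in it, with a median deviation of 0.72. Over all genes these medians were −0.72 and 0.45. The range among members ran from −1.23 for NID1 to 2.02 for FBN2. LAMA4 and LAMB2 were the members above the median gene that were higher in it, LAMA4 by 1.56. Many differences from untreated cells are therefore given with and without this array, though not every one whose sign turned. At 200 ng/ml, for instance, LAMB1 went from 0.12 to −0.23 and DCN from −0.21 to 0.24 without it. Likewise EFEMP1 went from −0.30 to 0.16 and BGN from −0.31 to 0.036. The differences between the doses do not use it, but their SE does, since the fit pools the spread of all groups.

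**Figure D1:**
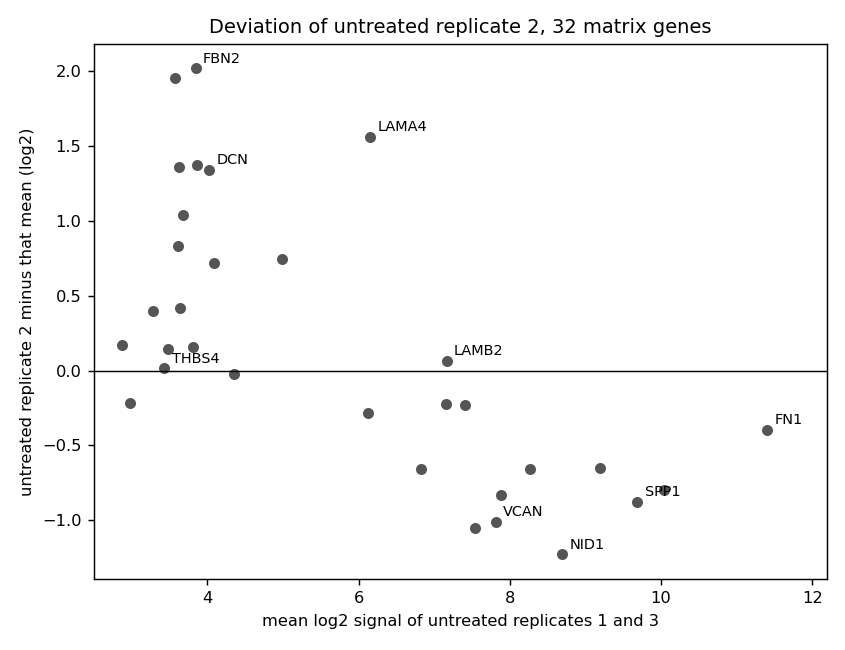
Each point is 1 of the 32 matrix genes; the horizontal axis is its mean log2 signal in untreated replicates 1 and 3 and the vertical axis the log2 signal of untreated replicate 2 minus that mean. FBN2 lies highest at 2.02 and NID1 lowest at −1.23, and members with higher signals lie mostly below 0.

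Without untreated replicate 2, again 0 of 32 members passed in any comparison (limma, smallest adjusted p among members 0.323, 0.894 and 0.191). The median difference was −0.0090, −0.013 and 0.016, beside −0.016, −0.0060 and 0.013 over all genes. At an unadjusted p under 0.05 there were 1, 2 and 5 members, beside 11.3%, 5.36% and 15.3% of all genes. The 95% interval then lay inside a 2-fold change for 32, 30 and 30 of the 32 members, with EFEMP1 and FBN2 the exceptions at 800 ng/ml and between the doses. It lay inside a 1.5-fold change for 22, 20 and 23 members. The members higher than untreated numbered 16 at 200 ng/ml and 15 at 800 ng/ml, where 47.2% and 48.2% of all genes were higher.

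The hepatocyte markers were bright in every group, with the mean log2 signal of 7 of 8 listed genes between 10.4 and 10.6 in all 9 arrays. The fibroblast list, of which 6 of 7 genes were measured, was at 5.18 to 5.26 in untreated replicates 1 and 3, 5.33 to 5.42 at 200 ng/ml and 5.20 to 5.34 at 800 ng/ml, and at 5.99 in untreated replicate 2. Endothelial markers were at 4.53 and 4.70 in untreated replicates 1 and 3 and at 5.25 in untreated replicate 2. They were at 4.56 to 4.67 at 200 ng/ml and 4.37 to 4.68 at 800 ng/ml. Markers of blood and Kupffer cells were at 5.0 to 6.04, 5.01 to 5.20 and 4.92 to 5.08, and those of cholangiocytes at 8.26 to 8.32, 8.39 to 8.49 and 8.30 to 8.45. The 8 neural and glial transcripts, chosen with earlier results known, averaged 6.40 and 6.45 in 800 ng/ml replicates 2 and 3 and 4.10 to 4.47 in every remaining array. The transcript of SPARC itself stood at 6.79 and 6.48 in these replicates and at 4.18 in replicate 1, beside 4.05, 4.27 and 4.15 untreated and 3.70, 3.92 and 3.51 at 200 ng/ml. No gene of these lists passed the test in any comparison. In bulk samples fewer cells of a type and less RNA per cell cannot be told apart.

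**Figure D2:**
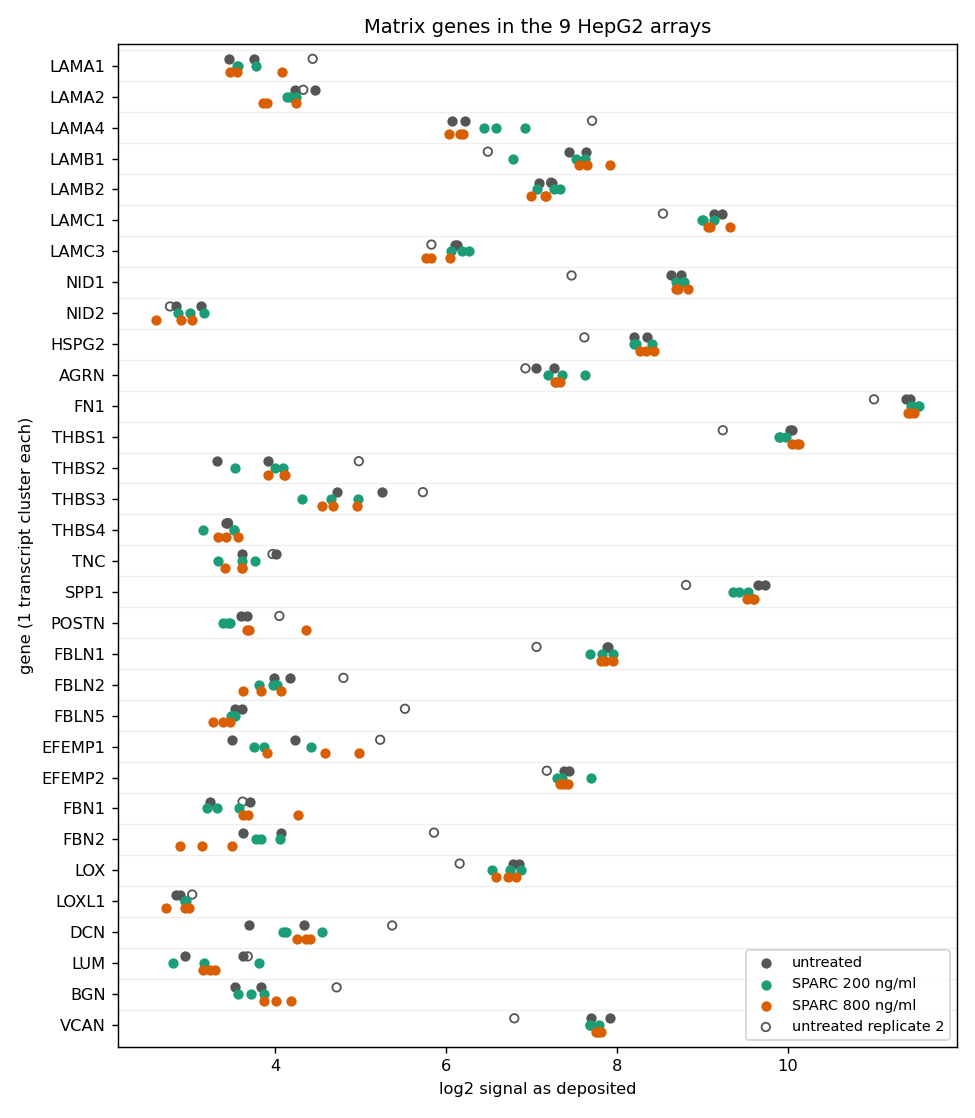
Log2 signal as deposited (horizontal axis) of the 32 matrix genes (rows) in the 9 arrays, coloured by group, with untreated replicate 2 drawn open. Filled points of a gene mostly lie close together, while the open point is displaced, as for NID1 at 7.47 and FBN2 at 5.86; signals of different genes come from different probes and are not comparable amounts.

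LAMC1, LAMB1 and LAMB2, the gamma and beta chains of the common laminins, overlapped between the groups in all 3 comparisons with all 9 arrays. The LAMC1 arrays at 200 ng/ml all lay below untreated replicates 1 and 3, by less than the second decimal shows. LAMC1, the gamma chain of most laminin trimers, had log2 signals of 9.23, 8.54 and 9.14 in the untreated replicates 1, 2 and 3, 9.0, 9.14 and 9.01 at 200 ng/ml and 9.33, 9.09 and 9.07 at 800 ng/ml. Apart from untreated replicate 2 these 8 values spanned 0.33. Its difference from untreated was 0.079 ± 0.22 (SE) at 200 ng/ml and 0.19 ± 0.22 at 800 ng/ml, and −0.14 ± 0.12 and −0.024 ± 0.12 without untreated replicate 2, so the sign turned with that array. LAMB1, the beta chain of laminin-111, had 7.64, 6.49 and 7.44 untreated, 6.79, 7.63 and 7.52 at 200 ng/ml and 7.65, 7.56 and 7.92 at 800 ng/ml. The low arrays were untreated replicate 2 and 200 ng/ml replicate 1. Its difference at 800 ng/ml was 0.52 ± 0.32, with an interval of −0.18 to 1.21, and 0.17 ± 0.24 without untreated replicate 2. LAMB2, a beta chain of mature basement membranes, was at 7.19 ± 0.084 untreated, 7.22 ± 0.14 at 200 ng/ml and 7.11 ± 0.095 at 800 ng/ml (SD, n = 3).

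Among the alpha chains, LAMA4, typical of vessel walls, was the one whose arrays separated by dose. It had 6.22, 7.71 and 6.07 untreated, 6.93, 6.44 and 6.59 at 200 ng/ml and 6.17, 6.20 and 6.04 at 800 ng/ml. The 3 arrays at 200 ng/ml all lay above the 3 at 800 ng/ml and above untreated replicates 1 and 3, while untreated replicate 2 was the highest of all. Between the doses the difference was −0.52 ± 0.36 (interval −1.31 to 0.28, unadjusted p = 0.180, adjusted p = 0.999), and its SE was 0.14 without untreated replicate 2 (adjusted p = 0.202). Against untreated cells it was −0.014 ± 0.36 at 200 ng/ml with all arrays and 0.51 ± 0.15 without untreated replicate 2 (unadjusted p = 0.00923, adjusted p = 0.323). With array weights it was 0.38 ± 0.11 and passed (adjusted p = 0.0451), in a fit that gave untreated replicate 1 a weight of 10.7 and untreated replicate 2 one of 0.040 and called 11.1% of all genes. The 200 ng/ml arrays correlated with untreated replicate 2 at 0.910 to 0.920, and the other 5 arrays at 0.891 to 0.902. What part this has in the LAMA4 values was not tested.

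LAMA2, the alpha chain of muscle laminin, had 4.23, 4.33 and 4.47 untreated, 4.14, 4.25 and 4.17 at 200 ng/ml and 4.24, 3.90 and 3.86 at 800 ng/ml. Replicates 2 and 3 at 800 ng/ml were its lowest arrays. The difference at 800 ng/ml was −0.34 ± 0.18 (unadjusted p = 0.0872) and −0.35 ± 0.15 without untreated replicate 2 (unadjusted p = 0.0396, adjusted p = 0.918). Without 800 ng/ml replicates 2 and 3, the arrays with the high neural list, it was −0.10, and what part that signal has in it was not tested. LAMC3, a gamma chain of restricted distribution, had 6.11, 5.83 and 6.13 untreated, 6.19, 6.27 and 6.06 at 200 ng/ml and 5.82, 6.05 and 5.77 at 800 ng/ml. All of its 800 ng/ml arrays were below those at 200 ng/ml, with a difference of −0.29 ± 0.18 (adjusted p = 0.999), whose SE was 0.12 without untreated replicate 2 (unadjusted p = 0.0324, adjusted p = 0.289). LAMA1, the alpha chain of embryonic laminin, was at 3.88 ± 0.50 untreated, 3.63 ± 0.13 at 200 ng/ml and 3.70 ± 0.33 at 800 ng/ml, and the mean of untreated replicates 1 and 3 alone was 3.61.

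Of the linkers and proteoglycans of the basement membrane, NID1 and HSPG2 differed little among the arrays once untreated replicate 2 was set aside, with spans of 0.19 and 0.24 over the remaining 8, whereas NID2 and AGRN spanned 0.57 and 0.58. NID1, which ties laminin to collagen IV, had 8.75, 7.47 and 8.63 in the untreated replicates 1, 2 and 3, 8.79, 8.78 and 8.69 at 200 ng/ml and 8.69, 8.83 and 8.71 at 800 ng/ml. Untreated replicate 2 was the lone low array. The difference from untreated of 0.47 ± 0.30 at 200 ng/ml and 0.46 ± 0.30 at 800 ng/ml became 0.057 ± 0.11 and 0.047 ± 0.11 without that array. HSPG2, which encodes perlecan, had 8.35, 7.62 and 8.20 untreated, 8.41, 8.22 and 8.20 at 200 ng/ml and 8.27, 8.44 and 8.34 at 800 ng/ml. Again only untreated replicate 2 stood off, and without it the intervals were −0.27 to 0.28 at 200 ng/ml and −0.20 to 0.35 at 800 ng/ml. NID2, the second nidogen, was at 2.91 ± 0.19 untreated, 3.01 ± 0.16 at 200 ng/ml and 2.85 ± 0.22 at 800 ng/ml.

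AGRN, which encodes agrin, the heparan sulfate proteoglycan that clusters acetylcholine receptors at the neuromuscular synapse, differed in pattern. It had 7.05, 6.93 and 7.27 untreated, 7.20, 7.36 and 7.63 at 200 ng/ml and 7.29, 7.33 and 7.28 at 800 ng/ml. All 3 arrays at 800 ng/ml lay above all 3 untreated arrays, the highest of which was 7.27 against a lowest of 7.28, and the 200 ng/ml arrays overlapped with the untreated ones. The differences were 0.31 ± 0.19 at 200 ng/ml (unadjusted p = 0.126) and 0.22 ± 0.19 at 800 ng/ml, and 0.24 ± 0.15 and 0.14 ± 0.15 without untreated replicate 2. It passed at 200 ng/ml with array weights alone (0.42 ± 0.099, adjusted p = 0.0235), the fit in which untreated replicate 1, its lowest array but replicate 2, had a weight of 10.7.

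Among the adhesive glycoproteins with bright signals, fibronectin varied least between arrays. FN1, which encodes fibronectin and is a major secreted product of hepatocytes, had 11.43, 11.01 and 11.38 in the untreated replicates 1, 2 and 3, 11.44, 11.53 and 11.54 at 200 ng/ml and 11.41, 11.43 and 11.48 at 800 ng/ml. The 8 arrays other than untreated replicate 2 spanned 0.16. All 200 ng/ml arrays were above all untreated arrays, by 0.23 ± 0.18 in the mean with all arrays and by 0.10 ± 0.11 without untreated replicate 2. At 800 ng/ml the difference was 0.17 ± 0.18 and 0.038 ± 0.11, with an interval of −0.20 to 0.28 in the second fit.

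THBS1, the thrombospondin that binds CD47 and activates latent TGF-beta, had 10.05, 9.24 and 10.03 untreated, 9.90, 9.98 and 9.91 at 200 ng/ml and 10.11, 10.05 and 10.13 at 800 ng/ml. Its 800 ng/ml arrays all lay above its 200 ng/ml arrays, and untreated replicates 1 and 3 lay above the 200 ng/ml arrays, near the lowest of the higher dose. Its differences from untreated were 0.16 ± 0.23 and 0.32 ± 0.23, and −0.11 ± 0.10 and 0.055 ± 0.10 without untreated replicate 2, so the sign at 200 ng/ml turned. The difference between the doses was 0.17 ± 0.23 (interval −0.33 to 0.67, adjusted p = 0.999). THBS3, a pentameric thrombospondin, had 4.72, 5.73 and 5.25 untreated, 4.97, 4.32 and 4.66 at 200 ng/ml and 4.55, 4.96 and 4.68 at 800 ng/ml and the smallest p of any member at 200 ng/ml, with −0.58 ± 0.27 (unadjusted p = 0.0556, adjusted p = 0.966). Its untreated arrays overlapped with those of either dose, and without untreated replicate 2 the difference was −0.33 ± 0.22. THBS2, an inhibitor of angiogenesis, was at 4.07 ± 0.84 untreated, 3.87 ± 0.30 at 200 ng/ml and 4.05 ± 0.11 at 800 ng/ml. Its differences from untreated were −0.20 ± 0.35 and −0.028 ± 0.35. Without untreated replicate 2 both turned sign, to 0.25 ± 0.21 and 0.43 ± 0.21. THBS4, a thrombospondin of tendon and nerve, was at 3.44 ± 0.014 untreated, 3.40 ± 0.21 at 200 ng/ml and 3.45 ± 0.12 at 800 ng/ml.

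SPP1, which encodes osteopontin, an integrin ligand secreted by many carcinomas, had 9.65, 8.81 and 9.73 untreated, 9.36, 9.53 and 9.43 at 200 ng/ml and 9.61, 9.52 and 9.59 at 800 ng/ml. Without untreated replicate 2 the untreated arrays were above every SPARC array, and the differences were −0.24 ± 0.11 at 200 ng/ml (interval −0.50 to 0.007) and −0.11 ± 0.11 at 800 ng/ml. With all arrays they were 0.048 ± 0.24 and 0.18 ± 0.24, of the opposite sign. TNC, which encodes tenascin-C of remodelling tissue, had 3.61, 3.97 and 4.01 untreated, 3.76, 3.33 and 3.61 at 200 ng/ml and 3.41, 3.61 and 3.61 at 800 ng/ml. Groups overlapped throughout, with differences of −0.30 ± 0.20 and −0.32 ± 0.20 from untreated, and −0.24 ± 0.17 and −0.27 ± 0.17 without untreated replicate 2.

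POSTN, which encodes periostin, a matricellular partner of collagen and BMP1, separated by dose without passing the test. It had 3.67, 4.05 and 3.60 untreated, 3.47, 3.45 and 3.39 at 200 ng/ml and 3.67, 4.36 and 3.69 at 800 ng/ml. The 3 arrays at 200 ng/ml were the lowest of the 9, and replicate 2 at 800 ng/ml was the highest. The difference between the doses was 0.47 ± 0.23 (interval −0.03 to 0.97, unadjusted p = 0.0628, adjusted p = 0.999; without untreated replicate 2 0.0253 and 0.275). Without 800 ng/ml replicates 2 and 3 and untreated replicate 2 it was 0.23.

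With all 9 arrays, the largest difference of any member at 200 ng/ml was that of FBLN5. At 800 ng/ml and between the doses it was that of FBN2. Both are elastic fibre genes. Without untreated replicate 2, FBLN5 was at −0.064 at 200 ng/ml, and the largest difference there was that of LAMA4, at 0.51. FBN2, a fibrillin most abundant in developing tissue, had 3.62, 5.86 and 4.07 in the untreated replicates 1, 2 and 3, 3.84, 4.06 and 3.78 at 200 ng/ml and 3.50, 2.89 and 3.15 at 800 ng/ml. Its 3 arrays at 800 ng/ml were the lowest of the 9, below every untreated and every 200 ng/ml array, and untreated replicate 2 was by far the highest. At 800 ng/ml its difference from untreated was −1.34 ± 0.45 (interval −2.33 to −0.34, unadjusted p = 0.0131, adjusted p = 0.659), the lowest difference of all 17687 genes though far from passing. Without untreated replicate 2 it was −0.66 ± 0.20 (interval −1.11 to −0.21, adjusted p = 0.894), the 30th lowest. Between the doses it was −0.71 ± 0.45 with all arrays (unadjusted p = 0.145), and its SE was 0.18 without untreated replicate 2 (unadjusted p = 0.00304, adjusted p = 0.191). At 200 ng/ml it was −0.63 ± 0.45, and 0.047 ± 0.20 without that array. Its lowest arrays were 800 ng/ml replicates 2 and 3, those with the high neural list. Without them and untreated replicate 2 the difference was −0.34 from untreated (adjusted p = 0.853) and −0.39 between the doses (adjusted p = 0.503). What part the neural signal has in the FBN2 values was not tested.

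FBN1, the main fibrillin of adult tissue, lay the other way between the doses and did not pass either. It had 3.71, 3.62 and 3.24 untreated, 3.58, 3.32 and 3.20 at 200 ng/ml and 4.27, 3.68 and 3.63 at 800 ng/ml. All 800 ng/ml arrays lay above all 200 ng/ml arrays, led by replicate 1, and the untreated arrays overlapped with both. The difference between the doses was 0.49 ± 0.23 (interval −0.014 to 1.0, unadjusted p = 0.0556, adjusted p = 0.999; without untreated replicate 2 0.0355 and 0.296) and 0.29 without 800 ng/ml replicate 1. Without 800 ng/ml replicates 2 and 3 it was 0.90.

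The promoters of FBN2 and POSTN are shown because these members lay at opposite sides between the doses and have a single start in the table used. This choice followed inspection of the values. Each sequence is the 200 bases before the start site, 5′ to 3′ on the gene's own minus strand, from RefSeq on build GRCh38.p14, at chr5:128538246-128538445 for FBN2 and chr13:37598769-37598968 for POSTN. Capitals mark matches on either strand to GGGCGG for the GC box, to TATAAA for the TATA box, to CCAAT for the box of that name, or to TGANTCA for the AP-1 site.
FBN2: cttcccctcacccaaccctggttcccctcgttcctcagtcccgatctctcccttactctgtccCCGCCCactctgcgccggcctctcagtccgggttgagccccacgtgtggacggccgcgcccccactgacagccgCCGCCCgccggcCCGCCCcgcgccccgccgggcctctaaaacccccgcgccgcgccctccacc
POSTN: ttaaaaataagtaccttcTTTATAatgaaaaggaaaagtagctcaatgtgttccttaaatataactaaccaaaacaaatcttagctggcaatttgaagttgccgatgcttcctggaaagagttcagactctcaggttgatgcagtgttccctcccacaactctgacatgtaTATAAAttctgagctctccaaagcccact
FBN2 held 3 GC boxes and no TATA box, and POSTN held 2 TATA boxes and no GC box. Neither held a CCAAT box or an AP-1 site in this window. Of 35116 windows of the same length, 40.1% held a GC box, 8.59% a TATA box, 28% a CCAAT box and 5.38% an AP-1 site. A promoter was listed for 26 of the 32 members, and 21 had a single entry. Of these, 13 held a GC box, 2 a TATA box, 4 a CCAAT box and 0 an AP-1 site. These matches describe letters only.

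Of the fibulins, FBLN5, which tethers elastic fibres to cells, had 3.53, 5.52 and 3.61 untreated, 3.51, 3.48 and 3.53 at 200 ng/ml and 3.27, 3.39 and 3.47 at 800 ng/ml. Untreated replicate 2 was 1.95 above the mean of the other untreated arrays, and the remaining 8 values spanned 0.34. The arrays of each dose lay below all untreated arrays, at 200 ng/ml by less than the second decimal shows. Its difference at 200 ng/ml was −0.72 ± 0.42, and −0.064 ± 0.11 without untreated replicate 2. At 800 ng/ml it was −0.84 ± 0.42 (limma, unadjusted p = 0.0701) and −0.19 ± 0.11 without untreated replicate 2. FBLN2, a fibulin of basement membranes and vessels, had 3.99, 4.80 and 4.18 untreated, 3.81, 4.02 and 3.98 at 200 ng/ml and 3.84, 3.63 and 4.07 at 800 ng/ml, with −0.47 ± 0.23 at 800 ng/ml (unadjusted p = 0.0679) and −0.23 ± 0.15 without that array. FBLN1, a fibulin of plasma and connective tissue, was at 7.61 ± 0.48 untreated, 7.82 ± 0.14 at 200 ng/ml and 7.87 ± 0.075 at 800 ng/ml. Its differences from untreated were 0.21 ± 0.24 and 0.26 ± 0.24, and −0.068 ± 0.12 and −0.016 ± 0.12 without untreated replicate 2. EFEMP2, which brings lysyl oxidase to elastin, was at 7.33 ± 0.14 untreated, 7.45 ± 0.22 at 200 ng/ml and 7.38 ± 0.053 at 800 ng/ml.

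EFEMP1, a fibulin of the eye and fascia, was the least even member over the 8 arrays other than untreated replicate 2, with a span of 1.49. It had 3.49, 5.23 and 4.23 untreated, 4.42, 3.75 and 3.87 at 200 ng/ml and 3.90, 4.59 and 4.98 at 800 ng/ml. Within the 800 ng/ml group replicates 2 and 3 were the higher ones, and these are the arrays in which the neural and glial list stood at 6.40 and 6.45 against 4.39 in replicate 1. The difference at 800 ng/ml was 0.17 ± 0.41 with all arrays and 0.63 ± 0.34 without untreated replicate 2 (interval −0.13 to 1.38). With array weights it was 1.04 ± 0.21 and passed (adjusted p = 0.0261), in the fit described for LAMA4. Whether the neural signal has a part in the EFEMP1 values was not tested.

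The crosslinking enzymes overlapped between the groups with all 9 arrays. LOX, the lysyl oxidase that crosslinks collagen and elastin, had 6.78, 6.16 and 6.86 untreated, 6.54, 6.88 and 6.75 at 200 ng/ml and 6.58, 6.73 and 6.82 at 800 ng/ml. Its differences from untreated were 0.12 ± 0.22 and 0.11 ± 0.22, and −0.096 ± 0.14 and −0.11 ± 0.14 without untreated replicate 2. LOXL1, which acts on elastin, was at 2.92 ± 0.10 untreated, 2.95 ± 0.0096 at 200 ng/ml and 2.89 ± 0.14 at 800 ng/ml. Apart from untreated replicate 2, its 200 ng/ml arrays, at 2.94, 2.96 and 2.95, lay above the untreated ones at 2.84 and 2.89.

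Of the interstitial proteoglycans, VCAN, which encodes the large hyaluronan-binding versican, had 7.70, 6.80 and 7.92 untreated, 7.68, 7.79 and 7.68 at 200 ng/ml and 7.78, 7.76 and 7.82 at 800 ng/ml. Its differences from untreated were 0.24 ± 0.26 and 0.31 ± 0.26, and −0.096 ± 0.12 and −0.028 ± 0.12 without untreated replicate 2. DCN, encoding decorin, had 4.34, 5.37 and 3.70 untreated, 4.13, 4.09 and 4.55 at 200 ng/ml and 4.36, 4.26 and 4.41 at 800 ng/ml. The untreated arrays of DCN held both its lowest and its highest value, and the difference at 800 ng/ml was −0.13 ± 0.34, or 0.32 ± 0.20 without untreated replicate 2. LUM, encoding lumican, had 2.94, 3.68 and 3.63 untreated, 3.81, 3.17 and 2.80 at 200 ng/ml and 3.16, 3.30 and 3.24 at 800 ng/ml and overlapped in every comparison, with −0.16 ± 0.28 and −0.18 ± 0.28 from untreated and −0.024 ± 0.28 and −0.05 ± 0.28 without untreated replicate 2. BGN, encoding biglycan, had 3.83, 4.72 and 3.53 untreated, 3.57, 3.72 and 3.87 at 200 ng/ml and 3.87, 4.19 and 4.01 at 800 ng/ml. Without untreated replicate 2 all 800 ng/ml arrays of BGN lay above the untreated ones, by 0.34 ± 0.15 (unadjusted p = 0.0516, adjusted p = 0.936), whereas with it the difference was −0.0063 ± 0.28. The table holds no detection calls, so whether DCN, LUM and BGN lay above background cannot be said. The same holds for the other dim members, FBN2, FBN1, POSTN and FBLN5 among them.

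**Figure D3:**
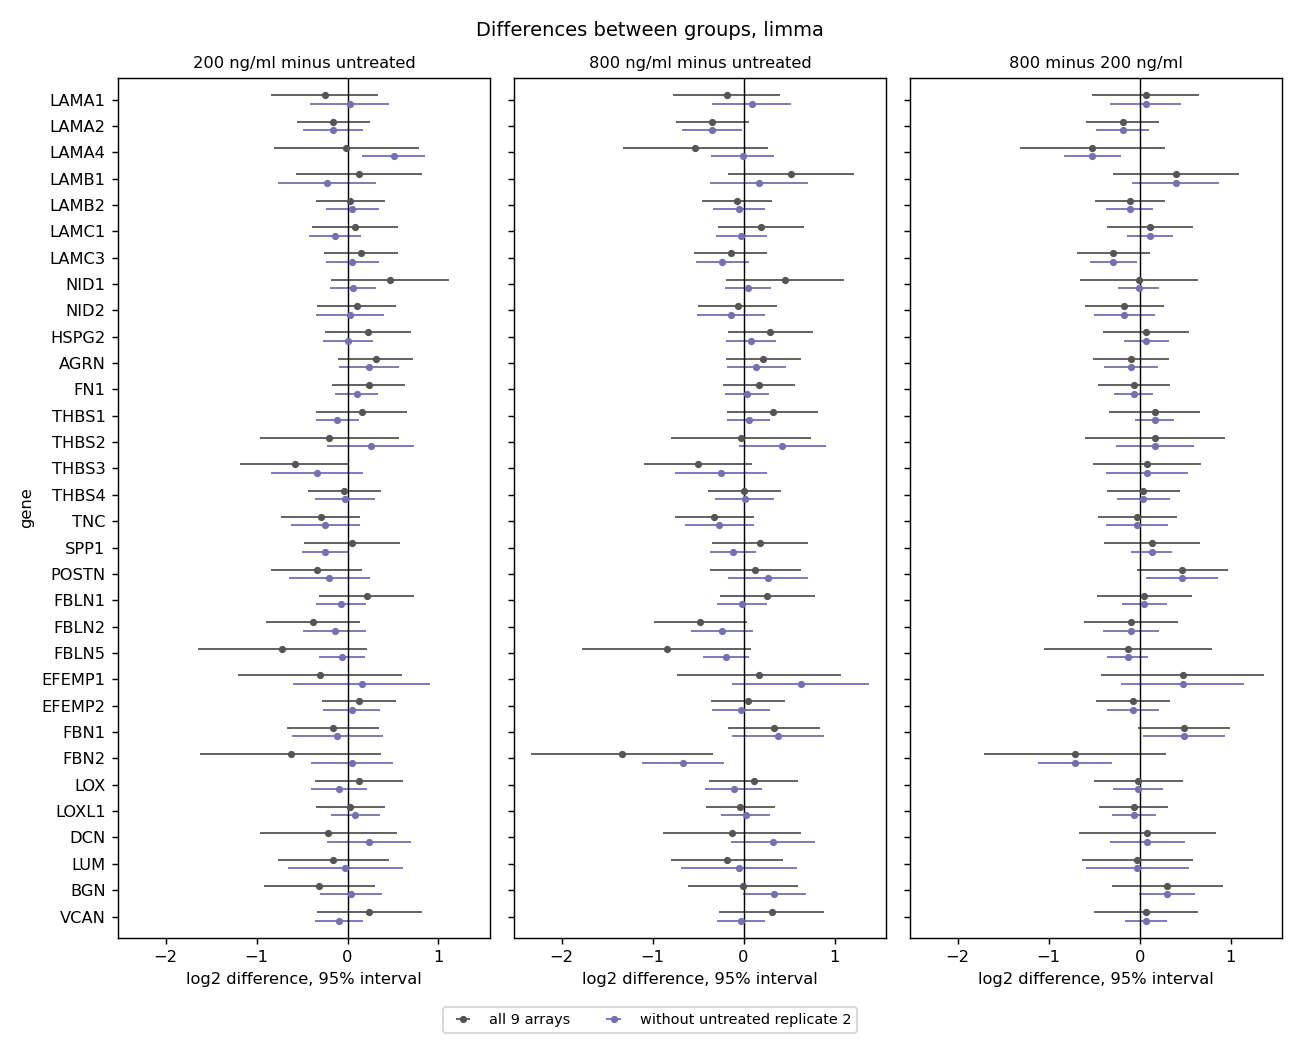
Log2 differences between groups with 95% intervals from limma (horizontal axis) for the 32 matrix genes (rows) in the 3 comparisons, with all 9 arrays and without untreated replicate 2. Intervals narrow without that array, LAMA4 at 200 ng/ml goes from −0.014 to 0.51, and FBN2 at 800 ng/ml from −1.34 to −0.66.

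The counts of members whose arrays did not overlap were near those of all genes. Between the doses 7 of 32 members did not overlap, against 21.9% of all genes. FBN1, POSTN and THBS1 were higher at 800 ng/ml, as were 12.1% of all genes, and LAMC3, FBN2, LAMA4 and FBLN5 were lower, as were 9.72%. Against untreated cells 3 members did not overlap at 200 ng/ml, FN1 above and FBLN5 and POSTN below, against 6.98% of all genes (3.92% above and 3.06% below). At 800 ng/ml these were AGRN above and FBN2 and FBLN5 below, 3 members against 11.2% (6.08% above and 5.14% below). Without untreated replicate 2, fewer arrays must separate, and 3 members lay above and 5 below at 200 ng/ml, against 13.8% and 17.8% of all genes (31.5% in both directions). At 800 ng/ml 2 lay above and 4 below, against 10.5% and 11.8% (22.3%). The members' replicates were about as tight as those of other genes, with a median SD of 0.14 at 200 ng/ml and 0.12 at 800 ng/ml, beside 0.16 and 0.15 over all genes. Both comparisons with untreated cells share the untreated arrays.

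**Figure D4:**
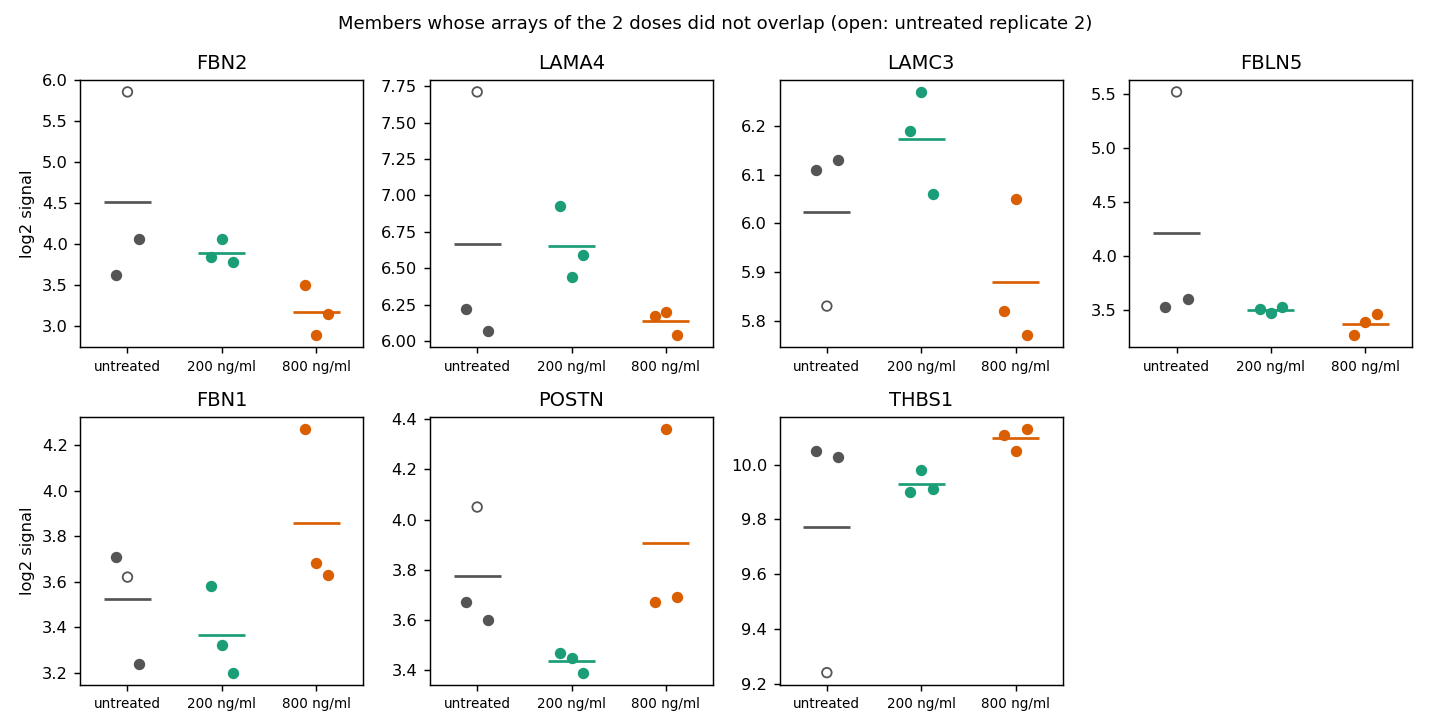
Log2 signal (vertical axis, a separate scale per gene) by group for the 7 members whose arrays did not overlap between the doses; points are arrays, lines are group means, and untreated replicate 2 is drawn open. FBN2 at 800 ng/ml lies between 2.89 and 3.50 against 3.78 to 4.06 at 200 ng/ml.

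Other genes of the matrix showed no call either. Of 48 further core matrix genes, 46 were measured, and 0 passed in any comparison (limma, smallest adjusted p 0.966, 0.659 and 0.999). Their median differences were −0.0011, −0.018 and −0.019. At an unadjusted p under 0.05 (limma) there were 0 at 200 ng/ml, beside 1.78% of all genes. At 800 ng/ml there were FBN3, another fibrillin, and BCAN, which encodes brevican of the brain matrix, beside 4.17%. FBN3 had −0.85 ± 0.31 against untreated, and −0.47 ± 0.20 without untreated replicate 2. With untreated replicate 2 left out, the list had 2 higher and 2 lower at such a p at 200 ng/ml. It had 2 higher and 1 lower at 800 ng/ml, and 3 higher and 1 lower between the doses. Over all genes the shares were then 11.3%, 5.36% and 15.3%. BCAN had 4.57, 5.89 and 6.13 in 800 ng/ml replicates 1, 2 and 3 against 4.50 to 4.74 at 200 ng/ml, so it was high in the same arrays as the neural list. Its difference was 0.90 ± 0.38 from untreated and 0.87 ± 0.38 from 200 ng/ml. Between the doses it was the only gene of the list at an unadjusted p under 0.05 (limma), beside 2.41% of all genes.

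Of 35 receptors, glycosyltransferases and processing enzymes of the matrix, 30 were measured and 0 passed in any comparison (limma). Their median differences were −0.061, −0.0032 and 0.028. At an unadjusted p under 0.05, 3 were lower at 200 ng/ml, 2 were lower at 800 ng/ml and 0 passed it between the doses, beside 1.78%, 4.17% and 2.41% of all genes. With untreated replicate 2 left out there were 2 higher and 4 lower at 200 ng/ml, 0 higher and 1 lower at 800 ng/ml, and 3 higher and 1 lower between the doses, beside 11.3%, 5.36% and 15.3%. ITGA5, the integrin alpha chain that pairs with beta 1 to bind fibronectin, had 3.85, 4.05 and 4.02 untreated, 3.52, 3.33 and 3.18 at 200 ng/ml and 3.51, 3.18 and 3.30 at 800 ng/ml. All 6 arrays with SPARC were below all 3 untreated arrays, with differences of −0.63 ± 0.19 and −0.64 ± 0.19 (limma, adjusted p = 0.966 and 0.659), and −0.59 ± 0.15 and −0.60 ± 0.15 without untreated replicate 2. CD36, a thrombospondin receptor, and DDR1, a collagen receptor, had −0.48 ± 0.21 and −0.62 ± 0.24 at 200 ng/ml, and −0.26 ± 0.11 and −0.37 ± 0.16 without untreated replicate 2. CD44, the hyaluronan receptor, had −0.55 ± 0.25 at 800 ng/ml, and −0.30 ± 0.17 without untreated replicate 2. XYLT1, which starts glycosaminoglycan chains by adding xylose to core proteins, was singled out after its values were seen. It had 3.70, 5.77 and 3.57 untreated, 4.82, 4.84 and 4.45 at 200 ng/ml and 3.79, 4.0 and 4.02 at 800 ng/ml. As with LAMA4, untreated replicate 2 was the highest array and the 200 ng/ml arrays came next. Its difference at 200 ng/ml was 0.36 ± 0.46 with all arrays and 1.07 ± 0.15 without untreated replicate 2 (limma, unadjusted p = 5.3e-05, adjusted p = 0.309), then the highest difference of all 17687 genes. Between the doses it was −0.77 ± 0.46, with an SE of 0.14 without that array (adjusted p = 0.167).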

How the data were processed

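The 9 arrays of HepG2 cells were grouped by the treatment in their titles. The authors deposited 1 table with a log2 signal per transcript cluster and array; the scale was inferred from the values. The submitters' processing notes name R 3.0; background correction, normalization and any filter were not stated in what was used here. The platform annotation gave 1 symbol to 17709 of 21448 clusters, several to 0 and none to 3739. The cluster with the highest mean was kept per gene, which left 17687 genes; each member had 1 cluster, and all 32 symbols match RefSeq of GRCh38.p14. Gene coordinates had no part in the comparisons and were used only for the promoter windows of FBN2 and POSTN.

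A single limma model (version 3.58.1, R 4.3.3; lmFit, eBayes) covered all 9 arrays, with Benjamini-Hochberg adjustment over all genes and a threshold of 0.05. Differences are log2 with moderated SE; intervals are 95%. The number of arrays limits the precision, and 3 against 3 arrays allow an exact permutation p of 0.1 at best. The fit was tried on simulated data whose spread left out untreated replicate 2. That trial cannot show how the fit behaves with this array.

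The members and lists were chosen with earlier results of these data known. Values in every array are given for members with an unadjusted p under 0.05 or among the 5 smallest in a comparison. They are also given for 14 measured members named for their role. EFEMP1 is given array by array outside this rule. Other members are given by group means. Of the 2 other lists, genes with an unadjusted p under 0.05 are named. LOXL2, also named for its role, was not analysed here.

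Alternatives were quantile normalization, median centring, leaving out the dimmest 25% or 50% of genes, the mean of all clusters, a trended robust prior, fits of 6 arrays, array weights, a replicate block and each array left out in turn. Leaving out untreated replicate 2 together with array weights or quantile normalization, and leaving out 800 ng/ml replicates 2 and 3 with and without it, were added after seeing the data.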

Additional observations from a re-analysis of the deposited data

How the results depend on the processing

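In all 3 comparisons, 0 members and 0 genes passed under quantile normalization, median centring, either filter on dim genes, the mean of all clusters, the trended robust prior, fits of 6 arrays and a replicate block. Array weights called 1971, 732 and 6 genes at 200 ng/ml, at 800 ng/ml and between the doses, and 2, 1 and 0 members (LAMA4 and AGRN, then EFEMP1). With untreated replicate 2 left out, array weights called 0 genes. Leaving out 1 array gave 0 members in every comparison, 0 genes at 200 ng/ml, 0 to 12 at 800 ng/ml and 0 to 15 between the doses; the 12 and 15 came without 800 ng/ml replicate 1. The medians of the members then ran from −0.048 to 0.025, −0.088 to 0.052 and −0.028 to 0.051.

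The median difference of the members was small and its sign was not stable. At 200 ng/ml it was −0.086 after quantile normalization and −0.028 with array weights, and −0.046 with array weights and without untreated replicate 2. After median centring it was 0.050 at 800 ng/ml and 0.059 between the doses. Without the dimmest 25% of genes, which left 19 members, it was 0.12, 0.17 and 0.052, and without the dimmest 50%, which left 15, it was 0.15 at 200 and 0.19 at 800 ng/ml; fewer members enter these medians. Without 800 ng/ml replicates 2 and 3 it was −0.061 against untreated and −0.054 between the doses, the latter also without untreated replicate 2. The single array at 800 ng/ml was then assumed to vary like the other groups.

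Only 15 member differences, the 5 with the smallest p in each of the 3 comparisons, were recomputed under the alternatives. Members that a filter on dim genes removed have no value under that filter, so each difference had 20 to 22 alternatives. Of their values 308 kept their sign and their side of the threshold, 1 newly passed it (AGRN with array weights at 0.42), and 2 changed sign, NID1 at 200 ng/ml with −0.013 and THBS3 at 800 ng/ml with 0.00089, both with array weights. Many of these alternatives could not move a sign, so the count of 308 does not measure how stable the signs were. The replicate block, the fits of only the arrays compared and the trended robust prior leave a difference as it is. The filters on dim genes do too, as does the mean of all clusters for these members. Leaving out an array of the group not compared cannot move a difference either. Over all 32 members, leaving out untreated replicate 2 turned the sign of 14 differences at 200 ng/ml and 11 at 800 ng/ml. With the replicate number as a block the medians were 0.0078, 0.0010 and 0.016. They could not differ from the main fit, because every group holds each replicate number once. Correlations between the deviations of same-number samples ran from −0.25 to 0.11, with 1 of 9 pairs above 0.1. Only 1 of 9 arrays correlated best with its own number. Deviations were from group means, so untreated replicate 2 enters those of every untreated array. Pairs with untreated arrays therefore cannot show whether samples of the same number deviate together. Between 200 and 800 ng/ml, where it does not enter, same-number pairs were at 0.00014, −0.046 and 0.034. The signal over background is unknown, which limits every low value.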
